A study of Rattus norvegicus with 9 samples.

Results

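B4galt6 is 1 of 8 genes for enzymes that build or take apart glycosphingolipids, and its level was measured with that of the other 7 in rat femur. The genes B4galt6, B4galt5, Ugcg, St3gal5, B4galnt1, Glb1, Gla and Hexa were taken by symbol from a table of 32623 gene rows, and each symbol had 1 row. B4galt6 was picked for its fall after ovariectomy and its control-like level with treatment, so its group values below are a description with no test. The other 7 were listed for their place in the pathway.

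Poly(A) RNA from femur was sequenced in 9 libraries, 3 from SD rats (control), 3 from ovariectomized rats and 3 from rats given Desertliving Cistanche herb (treated). All are labelled WT, and the series title places the herb treatment in ovariectomized rats. The labels give no age, dose, duration or sham surgery. They do not say that each library came from its own animal, so the p-values rest on the spread among these samples, which may be technical.

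Glycosphingolipids are membrane lipids made of ceramide, the backbone of sphingolipids, with a chain of sugars. Ugcg adds glucose to ceramide, B4galt5 and B4galt6 add galactose to give lactosylceramide, and St3gal5 adds sialic acid to lactosylceramide to give the ganglioside GM3. Lactosylceramide is the branch point from which the ganglioside, globoside and other series start, and lysosomal enzymes including Glb1, Gla and Hexa remove the sugars again. Lactosylceramide and gangliosides are abundant on blood cells and in nervous tissue, and inherited loss of these lysosomal enzymes causes storage diseases.

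B4galt6, a lactosylceramide synthase, lies on chromosome 18 from 15462913 to 15525579 on the plus strand (ENSRNOG00000015895), in the coordinates of the deposited table, for which no genome build is named in the labels or headers. FPKM values, which are counts scaled for gene length and library depth, were 30.6, 27.6 and 21.6 in the 3 control libraries. They were 9.49, 12.2 and 18.1 in the ovariectomized libraries and 29.9, 27.1 and 27.9 in the treated ones. Every ovariectomized library lay below every control and every treated library, and control and treated libraries overlapped. Group means were 26.6 ± 4.57 FPKM in control, 13.3 ± 4.41 in ovariectomized and 28.3 ± 1.45 in treated rats (SD, n = 3). Of all 13886 genes tested, 95 (0.684%) had ovariectomized libraries below all others in CPM. These are counts scaled for library depth, adjusted by a factor per library (TMM), and not for gene length. The share of 0.684% describes how common the pattern is and is no support for B4galt6, which was chosen for it.

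On the CPM scale the B4galt6 means were 178 ± 35.6 in control, 85.6 ± 27.5 in ovariectomized and 178 ± 11.8 in treated rats (SD, n = 3). The edgeR log2 fold change was -1.06 ± 0.23 (SE) for ovariectomized against control rats, 1.06 ± 0.23 for treated against ovariectomized rats and -0.00 ± 0.23 for treated against control rats, the last being at 0.10 by limma on log2(FPKM + 1). The first and the second of these share the ovariectomized libraries, so they are not independent. Within groups, the highest library in FPKM was 1.42 times the lowest in control, 1.91 times in ovariectomized and 1.10 times in treated rats. Counts per library ran from 3919 to 12387, for which counting error alone is 1.60% to 0.898% (SD), far below the spread between libraries. In a bulk sample, fewer cells that express the gene and less RNA per cell cannot be told apart.

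The length implied by its counts and FPKM was 6.43 to 6.45 kb in all 9 libraries, so the length by which counts were scaled did not differ between groups. No other row of the table overlapped its coordinates. The nearest protein-coding row before it, Trappc8, which encodes a vesicle trafficking subunit, ended 87882 bases away and had 12.9 to 16.1 FPKM in the 9 libraries, with a log2 fold change of -0.01 ± 0.08 (SE) for ovariectomized against control rats (edgeR adjusted p = 0.9998). The nearest after it, Ttr, the gene of the thyroid hormone carrier transthyretin, started 7384 bases away and was listed at 0 counts in every library.

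**Figure D1:**
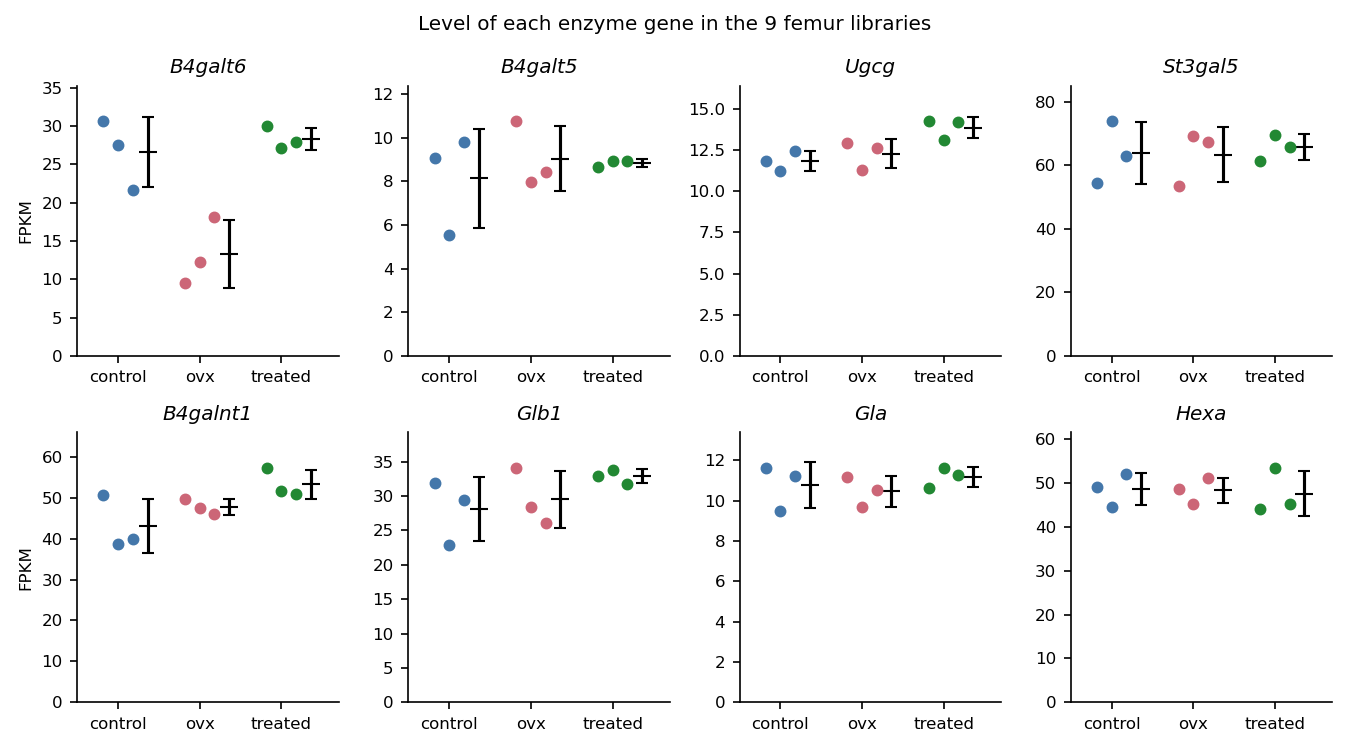
FPKM of each of the 8 genes (vertical axes, starting at 0) in control, ovariectomized (ovx) and treated libraries. Points are libraries, and the bar beside each group is the mean with its SD (n = 3); in B4galt6 the ovariectomized libraries, at 9.49 to 18.1 FPKM, lie below all 6 others.

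B4galt5 encodes the other lactosylceramide synthase (chromosome 3, 164039731 to 164095878, minus strand). It had 9.09, 5.55 and 9.78 FPKM in control, 10.8, 7.95 and 8.41 in ovariectomized and 8.64, 8.93 and 8.94 in treated libraries. Control replicate 2 was the lowest and ovariectomized replicate 1 the highest, and all groups overlapped. The log2 fold change was 0.11 ± 0.19 (SE) for ovariectomized against control rats (95% interval -0.33 to 0.55; edgeR adjusted p = 0.9998). It was -0.07 ± 0.19 for treated against ovariectomized rats (95% interval -0.52 to 0.37; edgeR adjusted p = 0.980). Both signs turned when single libraries were left out. Without control replicate 2 the former was -0.09, and without ovariectomized replicate 1 it was -0.04 and the latter 0.07. For treated against control rats the value was 0.04 ± 0.19, and -0.16 without control replicate 2.

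Per unit length, B4galt6 was the more abundant synthase transcript in 8 of the 9 libraries. It made up 77.1%, 83.2% and 68.9% of the summed FPKM of both genes in control and 77.6%, 75.2% and 75.7% in treated libraries. In ovariectomized libraries its share was 46.9%, 60.6% and 68.3%, and in ovariectomized replicate 1 B4galt5 was the higher of the pair. The summed level was 34.8 ± 4.38 FPKM in control, 22.3 ± 3.66 in ovariectomized and 37.2 ± 1.28 in treated rats (SD, n = 3). The sums of the ovariectomized libraries, 20.2 to 26.5 FPKM, lay below the 31.4 to 39.7 FPKM of the other 6. These sums and shares hold B4galt6 itself and were not tested; as given above, B4galt5 passed no test in either direction.

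**Figure D2:**
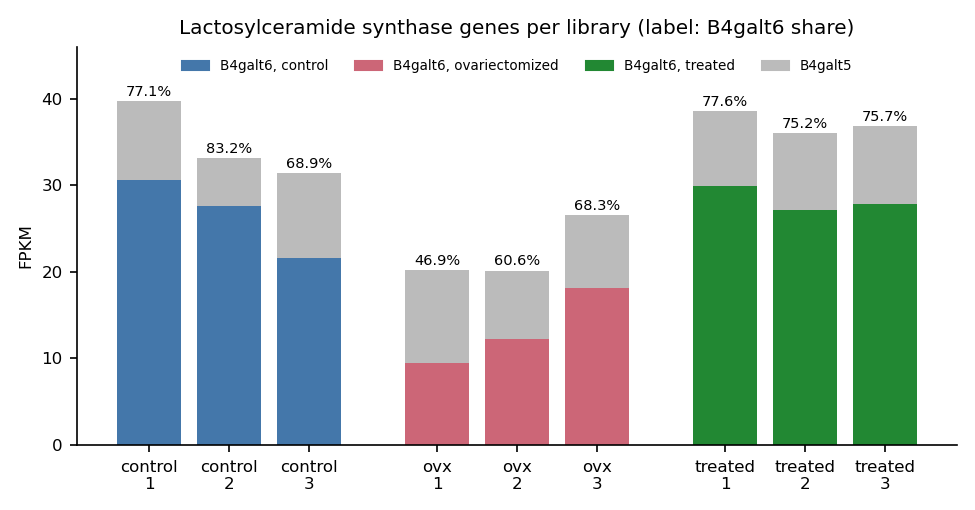
Summed FPKM (vertical axis) of B4galt6 (coloured by group) and B4galt5 (grey) in each library, with the B4galt6 share of the sum printed above each bar. The share is 46.9% to 68.3% in the ovariectomized (ovx) libraries and 68.9% to 83.2% in the others.

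Ugcg, the glucosylceramide synthase that makes the substrate of both galactosyltransferases, lies on chromosome 5 (76386836 to 76419560, plus strand). Its values were 11.8, 11.2 and 12.4 FPKM in control, 12.9, 11.3 and 12.7 in ovariectomized and 14.3, 13.1 and 14.2 in treated libraries. All 3 treated libraries were above every other library in FPKM, while in CPM they lay above the controls and overlapped with ovariectomized libraries. The log2 fold change was 0.01 ± 0.07 (SE) for ovariectomized against control rats (95% interval -0.15 to 0.17; edgeR adjusted p = 0.9998). For treated rats it was 0.13 ± 0.07 against ovariectomized rats (edgeR adjusted p = 0.931) and 0.14 ± 0.07 against control rats (95% interval -0.02 to 0.31; edgeR adjusted p = 0.605). The B4galt6 to Ugcg ratio of FPKM was 2.58, 2.45 and 1.74 in control, 0.734, 1.08 and 1.43 in ovariectomized and 2.10, 2.07 and 1.96 in treated libraries. That ratio holds B4galt6, chosen for its levels, and was not tested. The sign of the Ugcg estimate for ovariectomized against control rats turned when control replicate 2 (-0.01), ovariectomized replicate 1 (-0.03) or ovariectomized replicate 3 (-0.00) was left out.

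Downstream of lactosylceramide, St3gal5, the GM3 synthase, had the highest mean level of the 8 genes (chromosome 4, 99937558 to 99999902, plus strand). It had 54.5, 73.8 and 62.9 FPKM in control, 53.3, 69.1 and 67.4 in ovariectomized and 61.4, 69.6 and 65.8 in treated libraries. Replicate 1 was the lowest in each group, and the groups overlapped. The log2 fold change was -0.06 ± 0.14 (SE) for ovariectomized against control rats (95% interval -0.37 to 0.26; edgeR adjusted p = 0.9998) and 0.01 ± 0.14 for treated against ovariectomized rats (edgeR adjusted p = 0.994). The former turned to 0.08 when control replicate 2 was left out and to 0.05 when ovariectomized replicate 1 was. The latter turned to -0.09 with ovariectomized replicate 1 left out and to -0.03 with treated replicate 2 left out. For treated against control rats it was -0.05 ± 0.14 in edgeR and 0.05 by limma on log2(FPKM + 1), and -0.05 with median-of-ratios scaling in edgeR. It was 0.10 without control replicate 2. The ratio of St3gal5 to the summed synthases was 1.37 to 2.23 in control, 2.54 to 3.43 in ovariectomized and 1.59 to 1.93 in treated libraries. B4galt6, chosen for its levels, was the larger term of that sum in 8 of 9, and the ratio was not tested.

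B4galnt1 adds N-acetylgalactosamine to GM3 and lactosylceramide, giving GM2 and its relatives (chromosome 7, 70452579 to 70459880, plus strand). It had 50.7, 38.7 and 39.9 FPKM in control, 49.8, 47.5 and 46.01 in ovariectomized and 57.3, 51.7 and 50.9 in treated libraries. In FPKM the treated libraries were the highest, the lowest of them at 50.87 against 50.66 in control replicate 1, and in CPM they overlapped with both other groups. The log2 fold change was 0.10 ± 0.12 (SE) for ovariectomized against control, 0.12 ± 0.12 for treated against ovariectomized and 0.22 ± 0.12 for treated against control rats (95% interval of the last -0.05 to 0.49; edgeR adjusted p = 0.629). None of the 3 comparisons passed.

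The lysosomal enzymes showed levels that overlapped between groups in both units. Glb1, the beta-galactosidase that removes galactose from GM1 ganglioside (chromosome 8, 122439328 to 122511939, plus strand), had 32.0, 22.9 and 29.5 FPKM in control, 34.1, 28.4 and 26.0 in ovariectomized and 33.0, 33.8 and 31.8 in treated libraries. Control replicate 2 was its lowest library. Hexa, the alpha subunit of the beta-hexosaminidase that cuts GM2 (chromosome 8, 64325435 to 64350773, plus strand), had 49.1, 44.6 and 52.0 FPKM in control, 48.6, 45.2 and 51.0 in ovariectomized and 44.0, 53.4 and 45.2 in treated libraries. The highest and the lowest Hexa values were both in treated rats. Gla, the alpha-galactosidase of globoside breakdown (chromosome X, 105406792 to 105417323, minus strand), ran from 9.5 to 11.6 FPKM in control, 9.67 to 11.2 in ovariectomized and 10.6 to 11.6 in treated libraries.

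For these 3 genes the log2 fold changes of ovariectomized against control rats were 0.03 ± 0.13 (SE, Glb1), -0.05 ± 0.09 (Hexa) and -0.09 ± 0.11 (Gla). The Glb1 estimate turned to -0.09 when either control replicate 2 or ovariectomized replicate 1 was left out. Against ovariectomized rats, treated rats were at 0.11 ± 0.13, -0.06 ± 0.09 and 0.05 ± 0.11 in the same order. The 95% intervals for ovariectomized against control rats were -0.28 to 0.34, -0.25 to 0.14 and -0.33 to 0.15. For treated against control rats Gla was at -0.03 ± 0.11 in edgeR and at 0.05 by limma on log2(FPKM + 1), and at -0.03 with median-of-ratios scaling in edgeR. It was 0.04 without control replicate 1.

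Over the 7 genes other than B4galt6, 0 passed at an adjusted p under 0.05 in ovariectomized against control rats, where edgeR called 0 of 13886 genes (0%) and DESeq2 called 59 (0.425%). At an unadjusted p under 0.05 edgeR had 0 of the 7 and 701 of all genes (5.05%). Groups that did not overlap in CPM were seen in 0 of the 7, against 8.94% of all genes, and in FPKM in 0 of the 7, against 9.64%. Their log2 fold changes ran from -0.09 to 0.11. The lowest limit of a 95% interval was 0.773-fold (St3gal5) and the highest 1.47-fold (B4galt5). Intervals of single genes were narrower, such as 0.898-fold to 1.13-fold for Ugcg. Changes within a gene's own interval were not excluded at this spread. For treated against ovariectomized rats edgeR called 0 of the 7 and 0 of all genes (0%; 722 or 5.2% at an unadjusted p under 0.05, 0 of the 7 among them), and DESeq2 called 35 (0.252%). None of the 7 had groups apart in CPM in that comparison, against 12.4% of all genes, while in FPKM Ugcg and B4galnt1 did, against 14% of all genes. For treated against control rats edgeR again called 0 of the 7 and 0 of all genes (0%; 1223 or 8.81% at an unadjusted p under 0.05, 0 of the 7 among them), DESeq2 called 153 (1.1%), and Ugcg was the 1 of the 7 with groups apart in CPM, against 13.1% of all genes (6.34% on the higher side). In FPKM Ugcg and B4galnt1 were apart, against 17% of all genes. DESeq2 and limma called 0 of the 7 in each of the 3 comparisons.

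**Figure D3:**
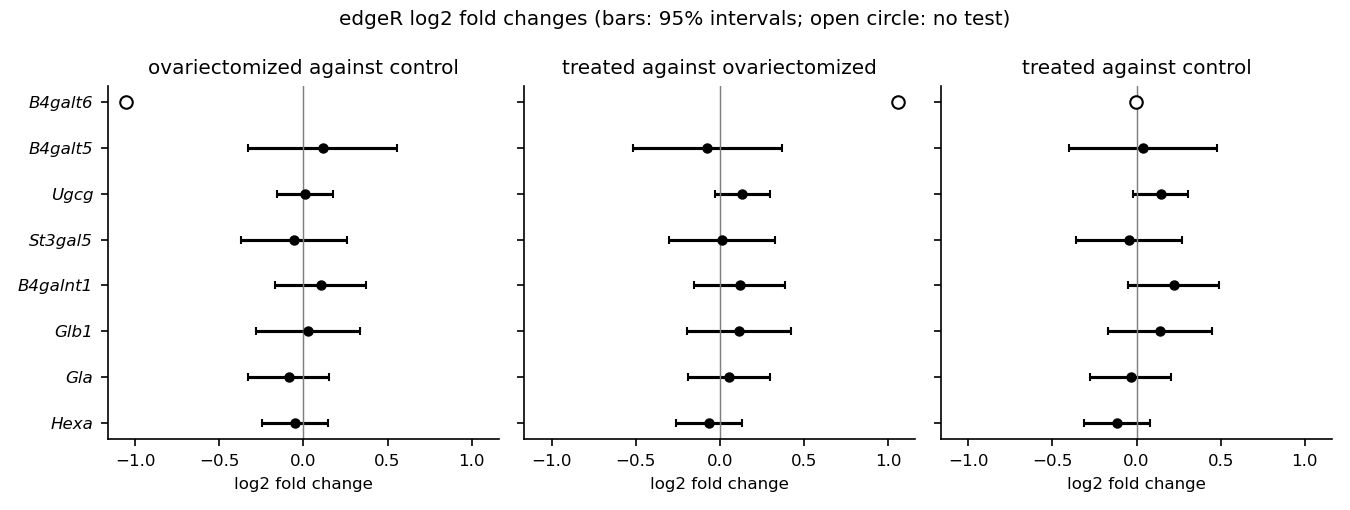
edgeR log2 fold changes (horizontal axes) of the 8 genes in the 3 comparisons; bars are 95% intervals, and the open circle marks B4galt6, which was chosen on these values and has no test. All intervals of the other 7 genes include 0, and their estimates lie between -0.12 and 0.22.

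By mean FPKM over the 9 libraries the order was St3gal5 (64.2), Hexa (48.1), B4galnt1 (48.0), Glb1 (30.2), B4galt6 (22.7), Ugcg (12.7), Gla (10.8) and B4galt5 (8.67). The ranges of neighbours over the 9 libraries overlapped except for B4galnt1 and Glb1, and Hexa was above B4galnt1 in only 4 of 9 libraries. St3gal5 exceeded Hexa, B4galnt1 exceeded Glb1, Ugcg exceeded Gla and Gla exceeded B4galt5 in 9 of 9 libraries. B4galt6 kept the fifth place in each group, but its distance to its neighbours did not stay the same. In control it was close to Glb1, which was higher in 2 of 3 libraries. In ovariectomized rats it was nearer to Ugcg, at 0.734, 1.08 and 1.43 times its FPKM and above it in 2 of 3 libraries. This restates the levels for which B4galt6 was chosen and was not tested.

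Other genes of the pathway were read from 4 lists with 69 symbols, of which 66 had a row and 54 passed the filter of a mean of at least 1 FPKM. In ovariectomized against control rats 0 of the 54 passed in edgeR in either direction, 1 had an unadjusted p under 0.05, and 3 had groups apart in CPM (5.56%, against 8.94% of all genes). The median log2 fold changes were -0.05 for the 5 other members of the B4galt family, -0.05 for 15 other synthesis genes, 0.06 for 19 genes of ceramide supply and 0.01 for 15 other breakdown genes. The ceramide supply list also holds Ormdl1, Ormdl2 and Ormdl3, which restrain that supply, and Sgms1, Sgms2, Samd8 and Cerk, which use ceramide. The breakdown list also holds the ceramidases Asah1, Acer2 and Acer3 and the sphingomyelinase Smpd1. Over all genes tested the median was -0.00, with the middle of the distribution from -0.10 to 0.10 (quartiles). The lowest estimate among the 54 was -0.45. B4galt6, at -1.06, was chosen for its fall, so its place below them is no support for it.

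The 3 pathway genes with groups apart in that comparison were lower in ovariectomized rats by small amounts. Gba2, the glucosylceramidase outside the lysosome, had 79.9, 82.2 and 78.2 CPM in control and 69.7, 72.5 and 75.01 in ovariectomized libraries (log2 fold change -0.15 ± 0.06 SE, edgeR adjusted p = 0.966). Ormdl1, which restrains the first enzyme of ceramide synthesis, had 3.04, 3.35 and 3.28 CPM against 2.72, 2.37 and 2.38 (-0.37 ± 0.17, edgeR adjusted p = 0.974). B4galt3, a galactosyltransferase of the same family, had 63.0, 62.3 and 62.2 CPM against 57.1, 60.8 and 56.5 (-0.11 ± 0.09, edgeR adjusted p = 0.9998), and its groups overlapped in FPKM. None of these passed over all genes tested.

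In treated against ovariectomized rats 0 of the 54 passed in edgeR, 2 had an unadjusted p under 0.05 and 5 had groups apart in CPM (9.26%, against 12.4% of all genes). The list medians were 0.05, 0.08, 0.01 and 0.05 in the order above. Acer2, a ceramidase of the Golgi, had 12.0, 8.99 and 11.6 CPM in ovariectomized and 6.46, 5.84 and 7.18 in treated libraries. Its log2 fold change was -0.74 ± 0.16 (SE), which did not pass in edgeR (adjusted p = 0.906) and passed in DESeq2 (adjusted p = 0.0103). Control libraries were at 9.67, 11.8 and 10.9 CPM and overlapped with the ovariectomized ones (0.01 ± 0.16 for ovariectomized against control rats). Against controls the treated rats were at -0.73 ± 0.16 (edgeR adjusted p = 0.431; DESeq2 adjusted p = 0.00512).

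Galc, the lysosomal galactosylceramidase, was at 24.2, 24.9 and 19.3 CPM in ovariectomized and 32.2, 28.5 and 26.6 in treated libraries (0.35 ± 0.16 SE, edgeR adjusted p = 0.929). Its control libraries were at 26.6, 19.0 and 20.3 CPM, overlapping with the treated ones, and treated against control rats gave 0.41 ± 0.16 (edgeR adjusted p = 0.518; groups apart in FPKM only). The sialyltransferases St3gal2 (-0.27 ± 0.11), St3gal3 (-0.38 ± 0.23) and St3gal1 (-0.42 ± 0.30), which act on gangliosides or on glycoproteins, were the other genes with groups apart in CPM, on the lower side in treated rats (edgeR adjusted p = 0.929, 0.945 and 0.945). In FPKM the groups of these 3 overlapped. St3gal4 of the same list, chosen after its values were seen, was at 0.18 ± 0.11 (edgeR adjusted p = 0.945), with treated libraries higher in FPKM and overlapping in CPM. St3gal1 rested on 1 library: treated replicate 1 had 82.7 CPM and the other 8 libraries 211.8 to 260.7, and without it the log2 fold change was -0.09. Without the same library St3gal2 was at -0.17.

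In treated against control rats 0 of the 54 passed in edgeR, 5 had an unadjusted p under 0.05 and 6 had groups apart in CPM (11.1%, against 13.1% of all genes). Beside Acer2, Gba2, St3gal2 and St3gal1, these were Cerk, the ceramide kinase, and Scarb2, which carries glucocerebrosidase to the lysosome. Cerk had 129.8, 121.3 and 122.6 CPM in control and 146.2, 149.5 and 135.0 in treated libraries (0.20 ± 0.08 SE, edgeR adjusted p = 0.520). Scarb2 was at 39.8, 35.0 and 39.5 CPM against 50.1, 41.0 and 50.4 (0.31 ± 0.19, edgeR adjusted p = 0.689). Gba2 was at -0.16 ± 0.06 (edgeR adjusted p = 0.516), St3gal2 at -0.26 ± 0.11 (edgeR adjusted p = 0.567; -0.16 without treated replicate 1 and -0.17 without control replicate 2) and St3gal1 at -0.50 ± 0.30 (edgeR adjusted p = 0.672; -0.17 without treated replicate 1). Groups of Gba2 and St3gal2 overlapped in FPKM.

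**Figure D4:**
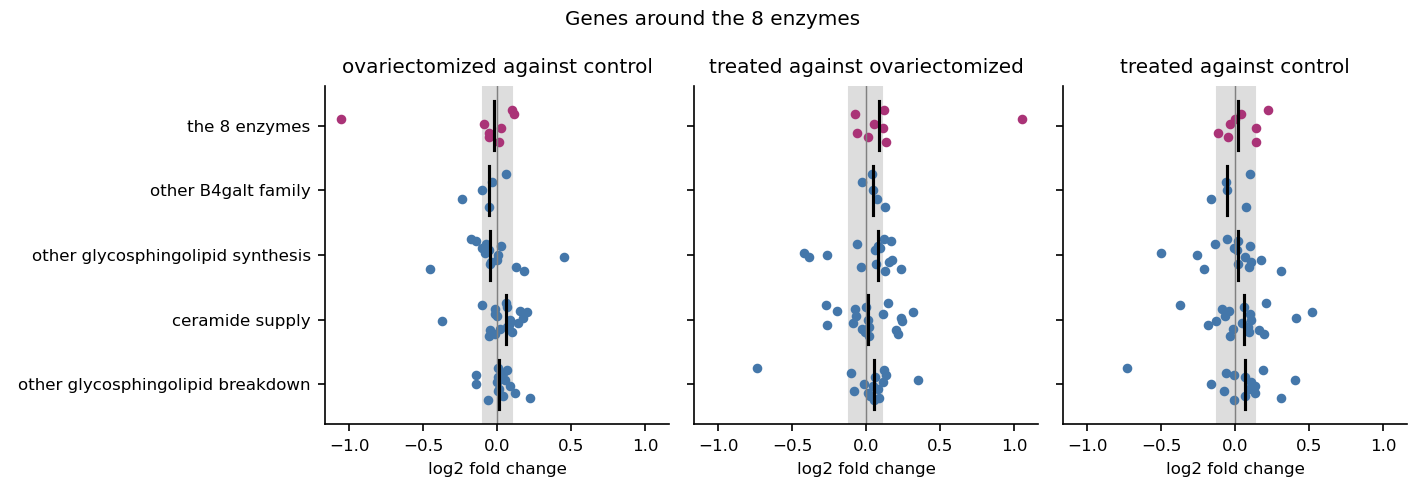
edgeR log2 fold changes (horizontal axes) of the 8 enzymes and of the tested genes of 4 pathway lists (points), with each median as a black bar; the grey band spans the quartiles of all 13886 genes tested. List medians lie between -0.06 and 0.08, and B4galt6, chosen on these values, is the point near -1.06 and 1.06.

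The genes whose log2 CPM followed that of B4galt6 most closely over the 9 libraries had Pearson r between 0.88 and 0.91. This is a description, since they are the highest among the 13886 genes tested once placeholder symbols, such as those starting with LOC or RGD, were left out. They were Tsr2, a ribosome biogenesis factor (0.91), Phf12, a PHD finger protein (0.90), Zfp652, a zinc finger protein (0.89), Ufd1, a cofactor of protein degradation (0.89), Lyrm2, a mitochondrial protein (0.89), Tmx3, a disulfide isomerase (0.88), Adam11, a metalloprotease relative (0.88), and Rwdd4 (0.88). Most differed by far less than B4galt6: Tsr2 had 10.6 FPKM in control, 9.98 in ovariectomized and 11.4 in treated rats (means). The log2 fold changes for ovariectomized against control rats were -0.08 to -0.17 in Phf12, Ufd1, Lyrm2, Tsr2 and Zfp652. Larger values were those of Rwdd4 (-0.58), Tmx3 (-0.37) and Adam11 (-0.33). Rwdd4 and Tmx3 were low in ovariectomized replicates 1 and 2 (5.27 and 6.15 FPKM in Rwdd4, 6.62 and 7.63 in Tmx3) and not in replicate 3 (13.4 and 12.6 FPKM). The ranking was loose, since with each library left out in turn Tsr2 stayed among the 8 highest in 7 of 9 cases and Rwdd4 in 1 of 9.

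**Figure D5:**
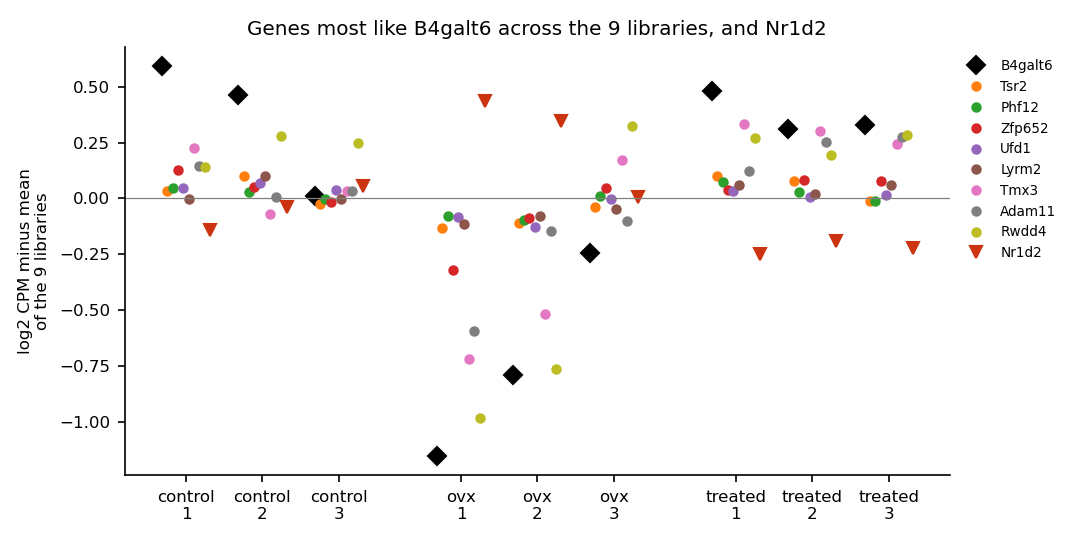
log2 CPM minus the mean of the 9 libraries (vertical axis) for B4galt6 (black diamonds), the 8 genes with the highest correlation with it, placeholder symbols left out (circles), and Nr1d2 (red triangles), by library. B4galt6 and Rwdd4 lie far below 0 in ovariectomized replicates 1 and 2, and Nr1d2, the clock gene described among the other observations, lies above it there.

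The libraries held 54992823 to 66531156 counts each. Markers of the labelled tissue were present: 6 bone matrix genes, among them Col1a1 and Bglap, summed to 2341 to 8830 CPM, with erythroid, neutrophil and B lineage markers beside them. Of 72 marker symbols in 12 lists, 70 had a row and 63 were tested. None of the 12 summed levels had all ovariectomized libraries above or below all 6 others, an arrangement that 0.684% of single genes had on the lower side. Skeletal muscle markers (7 of 7 tested) summed to 356 to 1046 CPM in control, 1203 to 5130 in ovariectomized and 834 to 1722 in treated rats. Adipocyte markers (7 of 7 tested) summed to 452 to 1105, 1270 to 1912 and 1305 to 2200 CPM. Cartilage markers (7 of 8 tested) summed to 357 to 1283 CPM in control, 183 to 247 in ovariectomized and 135 to 575 in treated rats. The ovariectomized libraries thus lay above every control in muscle and adipocyte markers and below every control in cartilage markers, and overlapped with the treated ones in all 3. In the remaining lists ovariectomized and control libraries overlapped. Of single genes, 8.94% had these 2 groups apart in CPM. Within the ovariectomized group B4galt6 was lowest in replicate 1 and highest in replicate 3. Bone matrix markers (2709, 3315 and 8104 CPM), muscle markers (1203, 2696 and 5130 CPM) and B lineage markers (260, 448 and 462 CPM) had the same order. Adipocyte (1912, 1804 and 1270 CPM), neutrophil (8987, 8574 and 7090 CPM) and macrophage markers (713, 483 and 434 CPM) had the opposite order, and the remaining lists had neither. In control B4galt6 was highest in replicate 1 and lowest in replicate 3. Adipocyte (1105, 1020 and 452 CPM), neutrophil (10619, 7309 and 6450 CPM) and nerve and Schwann markers (153, 122 and 105 CPM) had that same order. Bone matrix markers (4857, 5489 and 8830 CPM) and muscle markers (356, 854 and 1046 CPM) had the opposite order, and the remaining lists had neither. The part of cell makeup in the B4galt6 values was not tested.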

How the data were processed

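For every gene and each of 9 libraries the deposited table has a count (a whole number) and an FPKM value, per the file headers. The tools fastp, HISAT2 and StringTie are named in the submitters' processing notes. Versions, genome build and how counts were made: not given in the sources used here. The authors' FPKM is 0.0001 where the deposited count is 0. Per the labels' protocols, poly(A) RNA was fragmented after TRIzol extraction. Counting by strand and of reads shared between copies is not stated.

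Rows averaging 1 FPKM or more (13886 of 32623) were fitted with edgeR 4.0.16 in R 4.3.3: TMM factors and 1 quasi-likelihood fit over 9 libraries, with Benjamini-Hochberg adjustment over all genes tested and a threshold of 0.05. The common biological coefficient of variation was 0.262. Intervals of 95% are edgeR's estimate and SE with the t distribution on 8.37 degrees of freedom. Libraries held 54992823 to 66531156 counts. The step was checked on simulated data. In the 3 comparisons, ordered as in the Results, it called 49%, 50% and 60% of simulated 2-fold changes. Of 4-fold changes it called 87%, 90% and 88%. It made 8, 5 and 4 false calls, and the signs were right. A result of 0 genes called thus does not exclude 2-fold changes. CPM used TMM factors. These were 0.958, 0.939 and 1.01 in control, 0.995, 0.995 and 1.01 in ovariectomized and 1.01, 1.03 and 1.05 in treated libraries. FPKM followed total counts without these factors, so FPKM and CPM of a gene differed between libraries mainly by them. Named were the 8 members, per pathway list and comparison up to 3 genes with groups apart in CPM and the smallest p, and the 8 genes most correlated with B4galt6 (log2 CPM, prior count 2). Placeholder symbols were left out of that last choice. A symbol with several rows was read from its most abundant row. Members and lists were chosen with earlier results of these data known.

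Alternatives were median-of-ratios scaling, no filter or a filter at 5 FPKM, DESeq2 1.42.0, limma 3.58.1 on log2(FPKM + 1) or log2(FPKM + 0.1), only the 2 groups compared, a block for the replicate number, and leaving out each library.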

Additional observations from a re-analysis of the deposited data

How the results depend on the processing

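Of the alternatives run, leaving out 1 library moved the B4galt6 log2 fold changes most. Without ovariectomized replicate 3, those against or of ovariectomized rats moved by more than their SE of 0.23 (main values -1.06 and 1.06). The replicates themselves had a pooled SD of 0.321 in log2 CPM. These values describe B4galt6, which was chosen for its levels, and are no support for it. Without 1 library each, its log2 fold change ran from -1.34 to -0.87 for ovariectomized against control rats, from 0.87 to 1.34 for treated against ovariectomized rats and from -0.15 to 0.12 for treated against control rats; the outermost values came without ovariectomized replicates 3 and 1, and for the last without control replicates 3 and 1. With the replicate number as a block, B4galt6 was at -1.07, 1.06 and -0.01 and edgeR called 0 genes in each comparison. The numbers share no stated source: deviations of same-numbered libraries correlated at -0.132 to 0.184 over 9 pairs, 1 of them over 0.1. The 18 differently numbered pairs of libraries from different groups ran from -0.167 to 0.136.

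The counts of genes called by edgeR, 0 in each comparison in the order above, were 59, 35 and 153 by DESeq2 and 2, 1 and 1 with only the 2 groups compared. Without 1 library they ran from 0 to 4 (4 without control replicate 1, 2 without treated replicate 2), from 0 to 2 (1, 2 and 1 without control replicates 1 and 2 and treated replicate 2) and from 0 to 3 (3, 1, 2 and 3 without control replicates 1 and 2, ovariectomized replicate 1 and treated replicate 2). The cause was not tested.

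Of 357 alternative values of the other 7 enzymes, 0 passed the threshold (smallest adjusted p 0.217) and 19 turned in sign. By limma on log2(FPKM + 1) and log2(FPKM + 0.1), treated against control rats were at 0.0509 and 0.0517 in St3gal5 and 0.0499 and 0.0543 in Gla. The other 15 came without 1 library. For ovariectomized against control rats B4galt5 ran from -0.0923 to 0.232, Ugcg from -0.0328 to 0.0568, St3gal5 from -0.157 to 0.079 and Glb1 from -0.0942 to 0.140. For treated against ovariectomized rats B4galt5 ran from -0.148 to 0.0746 and St3gal5 from -0.0942 to 0.0927. For treated against control rats B4galt5 ran from -0.159 to 0.157, St3gal5 from -0.139 to 0.0983 and Gla from -0.101 to 0.0389. Acer2 alone among the named pathway genes crossed the threshold, in DESeq2. Counting error was at most 3.78% (SD) for the 8 enzymes, at 701 to 13002 counts per library.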

Other observations

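Nr1d2, which encodes a repressor of the circadian clock and was chosen after its values were seen, ran opposite to B4galt6 over the 9 libraries (Pearson r = -0.94; -0.96 to -0.88 with each library left out). It had 4.39, 4.64 and 5.32 FPKM in control, 6.80, 6.40 and 5.15 in ovariectomized and 4.29, 4.58 and 4.53 in treated libraries. The library with the lowest B4galt6, ovariectomized replicate 1, had the highest Nr1d2. Its own log2 fold change was 0.31 between ovariectomized and control rats and -0.49 between treated and ovariectomized rats (first minus second). This is the relation of a gene picked from 13886 and was not tested.

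Of the 66 pathway rows, 4 were at 0 counts in every library. A4galt, which makes the globoside Gb3 that Gla takes apart, Gal3st1, which makes sulfatide, the sialidase gene Neu4 and Sptssb, a small subunit of the first enzyme of ceramide synthesis, were these 4. A count of 0 allows up to 0.0451 to 0.0546 CPM per library (3 counts of the total, for counting error only). Gla was at 9.5 to 11.6 FPKM beside them.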
